A study of Homo sapiens with 24 samples.

Results

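The RNAs described here are the H/ACA small nucleolar RNAs (snoRNAs, gene symbols SNORA) and the small Cajal body RNAs (scaRNAs, gene symbols SCARNA) of A549 and HCT116 cells. Members were chosen by their counts: they are the symbols of either family, with a number and at most 1 letter, whose summed count over the 24 libraries was at least 240. These were 87 RNAs, 69 SNORA and 18 SCARNA, out of 168 symbols of these 2 patterns and 60641 symbols in all. Of the other 81 symbols, 8 had no count in any library. The members just above the minimum were SNORA14A, SNORA63, SNORA40B and SNORA80C, with summed counts of 270, 275, 277 and 281, and the RNAs just below it were SNORA50C, SCARNA20, SNORA68B and SNORA52, with 233, 222, 205 and 193. Since the summed count selected the members, their levels are given as a description.

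RNA-seq was made of lung adenocarcinoma cells (the A549 line) and of colorectal carcinoma cells (the HCT116 line), wild type or with a CRISPR/Cas9 deletion of the DNA-binding domain (DBD) of 1 transcript, in 8 groups of 3 libraries. In A549 the DBD was knocked out (KO) in MSTRG.2513.6 or in MSTRG.4401.1, and the wild type is called WT B. In HCT116 it was knocked out in MSTRG.2513.6, in MSTRG.4401.1 or in MSTRG.34636.7, and there are 2 wild types, called WT A and WT B. Libraries of WT A and of the MSTRG.34636.7 KO carry the numbers 1A, 2A and 3A (set A), and the other 18 carry numbers from S8 to S25 (set S). The sample labels name no agent beyond the KO, do not say whether a KO line is 1 clone, and do not say whether the 3 libraries of a group came from separate cultures, so the p-values measure the spread between these libraries, which may be technical. The question put to each KO was whether its members differed from wild type of the same cell line.

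H/ACA snoRNAs fold into hairpins that are followed by a single-stranded H box and, close to the 3′ end, an ACA box. Each is bound by dyskerin (DKC1), NOP10, NHP2 and GAR1, and most guide dyskerin to uridines of ribosomal RNA, which it converts to pseudouridine in the nucleolus. The scaRNAs work in Cajal bodies on the RNAs of the spliceosome. Some of them are H/ACA RNAs, others are box C/D RNAs that guide methylation of the ribose, and several carry both kinds of box. Most human members of both families are cut out of introns of host genes after splicing.

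The members were matched by symbol to GENCODE release 44, whose build, GRCh38, is the one named for these data. Of the 87, 85 had 1 locus, whereas SNORA63 and SNORA75 had 7 loci each, so their counts cannot be given to 1 of them. The 85 were 122 to 701 nt long, with a median of 135 nt for SNORA and 176.5 nt for SCARNA members. A host gene on the same strand with counts was found for 79 members, of which 68 had a protein-coding host and 10 an lncRNA host. Of these 79, 58 lay inside introns of the host, 20 overlapped one of its exons, and 1, SCARNA16, named here after its values were seen, overlapped an exon of another gene that contains it, SNHG20. There were 65 distinct hosts, and SNHG17 alone held 4 members. Another gene overlapped 14 members on the opposite strand, and whether the counting used the strand is not given in the sources used here, so their counts are uncertain. So are the counts of members that overlap an exon of their host. Among those named below, these include SNORA73A, SCARNA12, SCARNA13, SCARNA17, SNORA53, SNORA57, SNORA41, SNORA26, SNORA55, SNORA40, SNORA8 and SNORA71D.

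The sequences of the members on which the results below turn are given 5′ to 3′ from the GENCODE transcripts, with the ACA box in capitals where ACA stands 3 nucleotides before the 3′ end. SNORA73A and SNORA73B, the most abundant SNORA members, were identical at 192 of the 206 positions of their alignment (93.2%), so that reads of one can be assigned to the other. SNORA7B and SNORA10B are shown because they were nearly absent from one set of HCT116 libraries.
SNORA73A, chr1:28507366-28507571, plus strand: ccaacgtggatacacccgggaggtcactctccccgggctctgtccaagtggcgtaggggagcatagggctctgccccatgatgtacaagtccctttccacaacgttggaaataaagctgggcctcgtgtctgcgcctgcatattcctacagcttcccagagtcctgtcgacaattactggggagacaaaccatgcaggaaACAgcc
SNORA73B, chr1:28508559-28508762, plus strand: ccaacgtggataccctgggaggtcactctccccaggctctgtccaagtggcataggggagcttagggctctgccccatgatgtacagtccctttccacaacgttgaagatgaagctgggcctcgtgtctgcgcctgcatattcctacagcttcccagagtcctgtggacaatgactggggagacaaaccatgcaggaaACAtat
SNORA7B, chr3:129397210-129397348, minus strand: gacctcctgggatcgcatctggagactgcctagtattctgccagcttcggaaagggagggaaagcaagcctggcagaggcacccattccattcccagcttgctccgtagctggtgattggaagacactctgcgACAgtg
SNORA10B, chr2:30187434-30187566, plus strand: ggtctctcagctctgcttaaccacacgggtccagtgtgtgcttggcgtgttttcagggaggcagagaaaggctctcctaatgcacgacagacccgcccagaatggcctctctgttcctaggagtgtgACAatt

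SNORA26 and SNORA55 differed between the cell lines together with their host genes, and SNORA41 was the member called lower in A549 MSTRG.4401.1 KO.
SNORA26, chr4:52713249-52713370, plus strand: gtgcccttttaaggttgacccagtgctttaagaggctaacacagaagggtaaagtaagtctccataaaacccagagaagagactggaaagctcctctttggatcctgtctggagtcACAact
SNORA55, chr1:39567374-39567508, minus strand: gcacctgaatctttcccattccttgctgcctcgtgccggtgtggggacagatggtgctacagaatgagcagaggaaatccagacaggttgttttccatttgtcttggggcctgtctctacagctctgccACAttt
SNORA41, chr2:206162228-206162359, plus strand: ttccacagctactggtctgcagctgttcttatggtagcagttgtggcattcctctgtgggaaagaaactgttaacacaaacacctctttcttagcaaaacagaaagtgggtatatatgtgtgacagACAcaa

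SCARNA12 and SCARNA18 rose in A549 MSTRG.4401.1 KO, as did the longer SCARNA2. SCARNA12 has no ACA box at this position.
SCARNA12, chr12:6967337-6967606, minus strand: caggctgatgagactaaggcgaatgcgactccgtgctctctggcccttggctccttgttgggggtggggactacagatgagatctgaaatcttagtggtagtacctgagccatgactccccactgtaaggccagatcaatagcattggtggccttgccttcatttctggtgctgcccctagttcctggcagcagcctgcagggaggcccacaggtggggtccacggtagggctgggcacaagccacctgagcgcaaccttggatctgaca
SCARNA18, chr5:83064204-83064337, minus strand: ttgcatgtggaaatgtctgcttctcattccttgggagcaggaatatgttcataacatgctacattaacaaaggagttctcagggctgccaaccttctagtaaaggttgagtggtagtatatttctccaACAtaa

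The letters ACANNN, searched on the sense strand as the last 6 nucleotides, were found in 51 of 67 SNORA members (76.1%) and 9 of 17 SCARNA members (52.9%) for which the GENCODE transcripts gave a sequence. Of all 991 snoRNA and scaRNA transcripts of GENCODE, 30.8% had them, and of the 61 box C/D snoRNAs (symbols SNORD) that reached the same summed count, 2 had them (3.3%). The SCARNA members without them included SCARNA2, SCARNA7 and SCARNA17, known as box C/D RNAs, so the name H/ACA does not cover every member. TGAG, a core of the Cajal body localization element of H/ACA scaRNAs, was found on the sense strand anywhere in 14 of 17 SCARNA members (82.4%), 26 of 67 SNORA members (38.8%), 80.3% of the C/D snoRNAs and 62.7% of all 991 transcripts. In C/D RNAs these letters can overlap the D or C box. The search was not matched for length, and SCARNA members are longer than SNORA members (medians of 176.5 and 135 nt).

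The library totals were 25799359 to 102261808 counts. Levels are given as CPM, the count scaled to the library total, and 3 counts in a library, the floor used here, corresponded to 0.0293 to 0.116 CPM. The libraries S8 and S9, labelled HCT116 MSTRG.2513.6 KO, went against their label. Their log2 CPM over all genes correlated with A549 libraries at r = 0.971 to 0.996 and with HCT116 libraries at r = 0.916 to 0.927, and AKR1B10 was at 2264 to 2289 CPM in them, against 1959 to 2779 CPM in A549 and at most 1.81 CPM in the other HCT116 libraries. Of the markers fixed for the labelled lines, AKR1B10, AKR1C2 and ALDH1A1 marked A549 and CDX2 marked HCT116 (13.9 to 23.6 CPM). The lung markers NKX2-1, SFTPB and SFTPC reached at most 2.6 CPM and the other 5 colon markers at most 6.94 CPM in any library, and some went against the labels. NKX2-1 was at 0 to 0.496 CPM in A549 and 1.15 to 2.38 CPM in HCT116 without S8 and S9. VIL1 and LGALS4 peaked in A549 (6.94 and 1.33 CPM, against 2.04 and 0.218 CPM), and KRT20 and GPA33 in HCT116 (1.47 and 0.466 CPM). The smallest totals were those of the 3 libraries of A549 MSTRG.4401.1 KO, with 3.5 to 7.87% of counts on mitochondrial genes against 1.96 to 2.37% in A549 WT B.

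The members were unequal in level. There were 9 members that had a mean of 10 CPM or more over the 24 libraries, 25 had 1 to 10 CPM and 53 were below 1 CPM. The 10 most abundant held 85.7% of the members' summed mean CPM, and the first 5, SCARNA2, SCARNA10, SNORA73B, SCARNA5 and SNORA73A, held 69.8%. Per length, SNORA73B was at 309.7 CPM per kb, SCARNA10 at 298 CPM per kb, SNORA73A at 247 CPM per kb, SCARNA2 at 240 CPM per kb and SCARNA5 at 197 CPM per kb. SCARNA2 and SCARNA9 guide modification of U2 snRNA, SCARNA10 and SCARNA5 act on U5 snRNA, and SNORA73A and SNORA73B are needed for cleavage of the precursor of 18S ribosomal RNA. SCARNA12 (33.4 CPM, mean of 24 libraries), SCARNA13 (19.6 CPM), SCARNA7 (11.8 CPM), SCARNA6 (10.8 CPM) and SNORA74A (8.38 CPM) completed the 10, whereas SCARNA9 was at 2.44 CPM and SCARNA17 at 1.15 CPM. All 10 were at least 198 nt long, whereas the other 77 members had a median of 135 nt. Over the 85 members with 1 length the level in CPM per kb and the length had a Spearman correlation of 0.34, a description across RNAs that share these libraries.

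**Figure D1:**
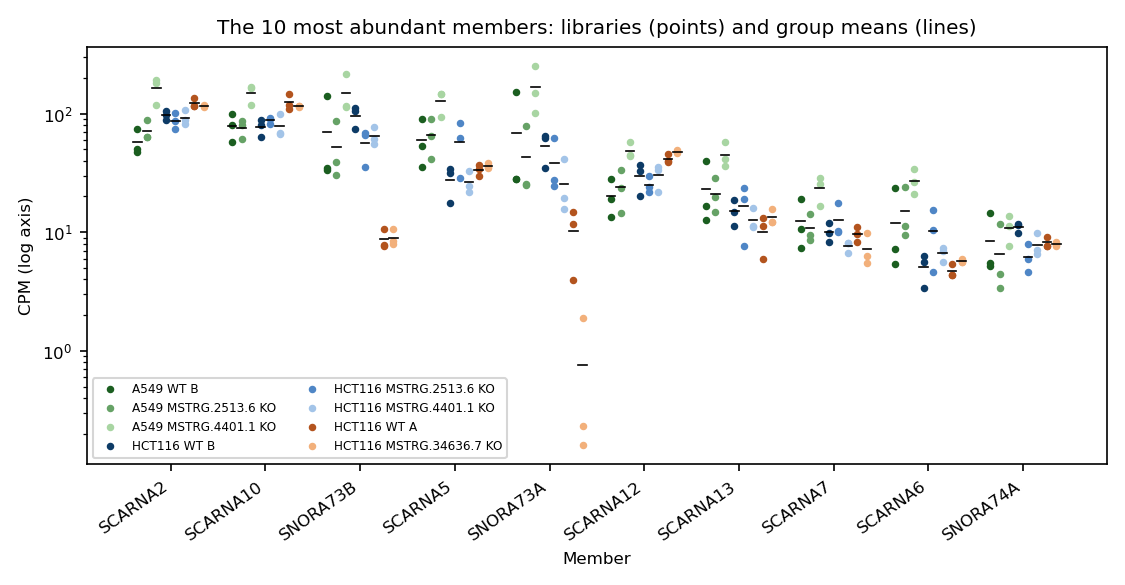
The 10 most abundant members are on the horizontal axis and CPM is on the vertical log axis, with 1 point for each library and a line at each group mean (n = 3). SNORA73B lies between 7.69 and 10.7 CPM in the 6 set A libraries and above 30 CPM in all others, whereas SCARNA2 and SCARNA10 stay within 1 order of magnitude.

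Every member was detected in all 9 A549 libraries. Members at 0 were SNORA10B in all 6 set A libraries, and SNORA14A, SNORA49 and SNORA59B in 1 HCT116 library each. The summed level of the 87 members ranged from 308 to 1309 CPM. It was 894, 1309 and 892 CPM in the MSTRG.4401.1 KO of A549, 392.1, 321 and 614 CPM in its MSTRG.2513.6 KO, and 786, 353 and 308 CPM in A549 WT B. The high value of A549 WT B was that of S20, so that this library lay close to the MSTRG.4401.1 KO libraries and apart from the other 2 of its own group. The 61 C/D snoRNAs summed to 186 CPM in S20 against 73.3 and 89.98 CPM in S21 and S22. In HCT116 of set S the members summed to 404, 553 and 560 CPM in WT B and to 423, 501 and 375 CPM in MSTRG.4401.1 KO. In set A they summed to 462, 452 and 412 CPM in WT A and 411, 418 and 420 CPM in MSTRG.34636.7 KO. The SCARNA members made up 79.8 to 85.2% of the members' summed CPM in set A and 50.2 to 75.6% in set S.

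**Figure D2:**
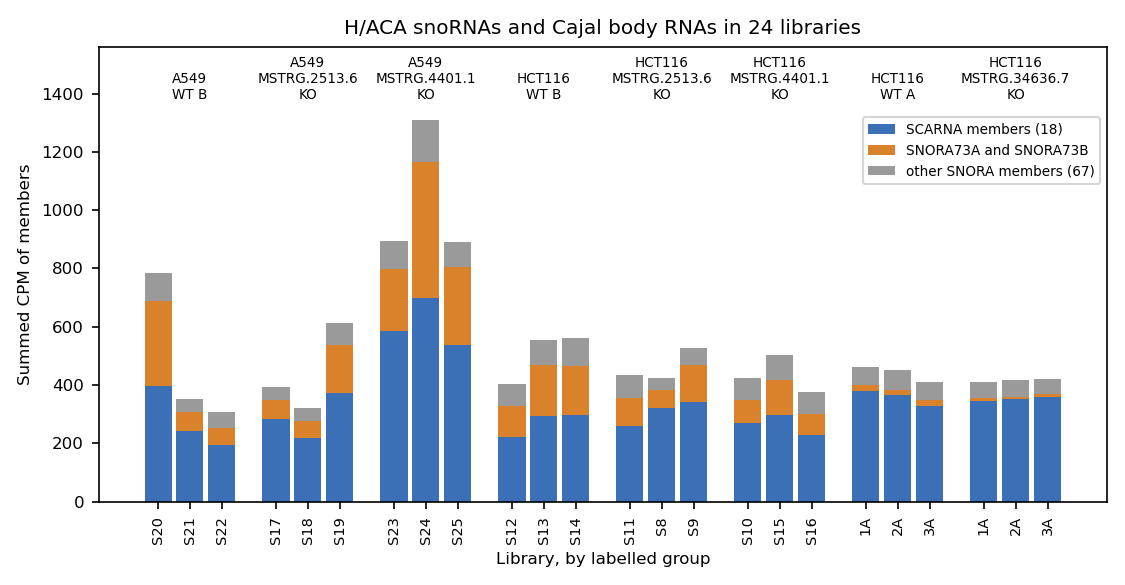
Stacked bars give the summed CPM of the members in each library, by labelled group, for SCARNA members, for SNORA73A with SNORA73B, and for the other SNORA members. The 3 A549 MSTRG.4401.1 KO libraries (892 to 1309 CPM) are the highest, S20 (786 CPM) stands above S21 and S22, and SNORA73A with SNORA73B make 8.13 to 22.4 CPM in set A against 55.9 CPM or more in set S.

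In A549 with the MSTRG.4401.1 KO, 12 members were higher and 1 was lower than in wild type. A member was called at an FDR below 0.1 and a log2 fold change beyond 1, with edgeR's quasi-likelihood test fitted on all genes of the 2 groups, and 84 of the 87 members passed the filter on low counts. The 13 calls are 15.5% of the members tested, and 15.4% of all 24979 genes tested were called. In the upward direction the shares were 14.3% and 11.1%, and in the downward direction 1.19% and 4.32%. The log2 fold change was above 0 for 73 of the 84 members, with a median of 0.61 (0.90 over 18 SCARNA and 0.54 over 66 SNORA members), against a median of 0.12 over all genes tested. The KO and wild-type libraries did not overlap for 21 members that were higher and 2 that were lower (25% and 2.38%), against 28% and 20% of all genes tested. At an unadjusted p below 0.05 there were 18 members (21.4%), against 45.3% of all genes tested. The share of called members lay at the background. In bulk RNA fewer cells with an RNA and less of it per cell cannot be told apart.

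Of the 18 scaRNAs 4 were called, all higher. SCARNA2 was at 119, 180 and 192 CPM in the KO libraries and at 74.7, 47.9 and 50.3 CPM in A549 WT B. All KO libraries lay above all wild-type libraries, and the log2 fold change was 1.42 ± 0.25 (SE; adjusted p = 0.00478). SCARNA5 was at 147, 146 and 93.1 CPM against 89.2, 53.4 and 35.7 CPM, without overlap (log2 fold change 1.00 ± 0.33, adjusted p = 0.0473), although its host ATG16L1, an autophagy gene, had a log2 fold change of -0.03. SCARNA12, which like SCARNA5 carries both kinds of box, was at 44.1, 57.2 and 44.3 CPM against 27.9, 19.2 and 13.4 CPM (1.17 ± 0.27, adjusted p = 0.0136). SCARNA18, which is rare, was at 0.66, 0.66 and 0.57 CPM against 0.10, 0.30 and 0.17 CPM (1.62 ± 0.52, adjusted p = 0.0423). SCARNA10 passed the FDR but not the fold change, at 164, 168 and 119 CPM against 98.8, 79.4 and 57.9 CPM (0.83 ± 0.22, adjusted p = 0.0223). SCARNA13, SCARNA7 and SCARNA6 were not called, with log2 fold changes of 0.84, 0.81 and 1.05 and overlapping libraries.

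Among the SNORA members, those called higher were SNORA7B, SNORA14A, SNORA47, SNORA50A, SNORA54, SNORA70B, SNORA74B and SNORA80A, with log2 fold changes of 1.02 to 1.85. SNORA47, SNORA50A, SNORA54 and SNORA70B were chosen after their values were seen, as was SNORA80A for this comparison. SNORA7B was at 1.69, 4.92 and 3.28 CPM in the KO and at 1.55, 0.76 and 1.11 CPM in wild type (1.44 ± 0.44, adjusted p = 0.0367). SNORA14A was at 0.81, 0.97 and 0.76 CPM against 0.20, 0.40 and 0.02 CPM, the largest increase among the called members (1.85 ± 0.70, adjusted p = 0.0723). These were 27, 25 and 20 counts against 12, 24 and 1, the last below the floor of 3 counts. SNORA41 was the member called lower, at 0.12, 0.12 and 0.34 CPM against 0.76, 0.66 and 0.55 CPM (-1.85 ± 0.56, adjusted p = 0.0343). These were 4, 3 and 9 counts against 45, 39 and 23, so that S24 was at the floor. SNORA41 lies in EEF1B2, a translation elongation factor gene, which was also lower (log2 fold change -0.79, adjusted p = 0.00692). The member overlaps an exon of that gene. SNORA73A and SNORA73B were not called. SNORA73A was at 101, 252 and 150 CPM in the KO and at 151, 28.0 and 28.0 CPM in wild type, and SNORA73B at 112, 216 and 117 CPM against 141, 35.05 and 33.6 CPM. In both, S20 lay among the KO libraries.

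**Figure D3:**
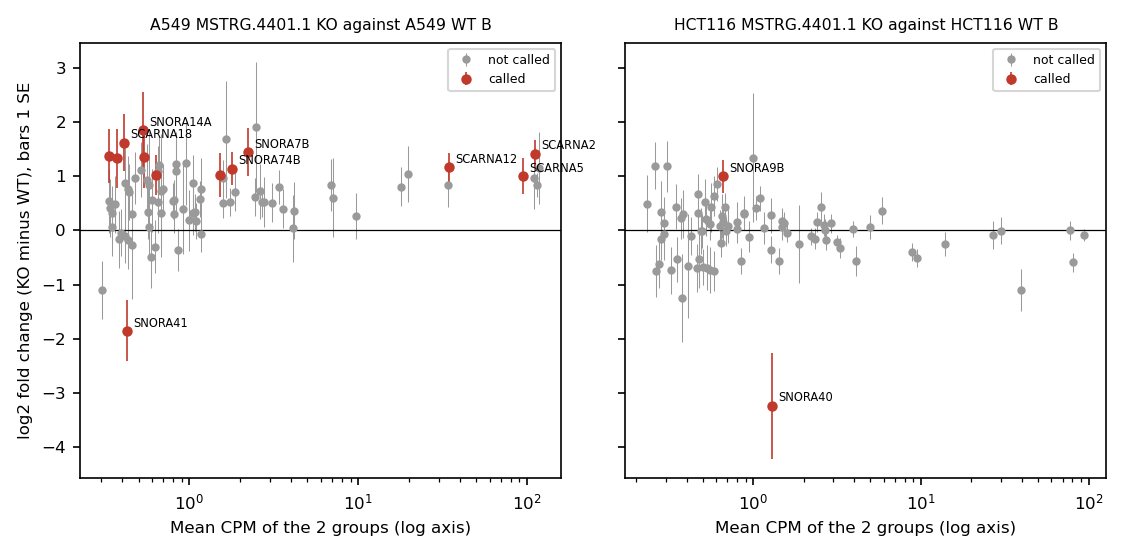
Each point is 1 member tested in MSTRG.4401.1 KO, with the mean CPM of the 2 groups on the horizontal log axis and the log2 fold change with 1 SE on the vertical axis, for A549 on the left and HCT116 on the right, with called members in red. In A549 73 of 84 points lie above 0, with SCARNA2, SCARNA5 and SCARNA12 as the abundant called members and 5 called members left without a name, whereas the HCT116 points have a median of 0.01.

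These calls rested in part on single libraries. Without S20 there were 29 calls (34.5%, against 13.1% of all genes tested), all higher, of which 7 were among the 13. Without S23 there were 8 (9.41%, against 15.7% of all genes tested), and without S24, S21 or S22 there were 5 each. The latter were 5.88%, 5.95% and 5.95% of the members tested, against 11.3%, 11.6% and 15.1% of all genes tested. Without S25 the shares were 12.9% and 14.2%. SNORA41 was not called without S20. SCARNA2 was called in each of these fits, and without S20 SNORA73A and SNORA73B were called as well, with log2 fold changes of 2.53 and 2.06. The summed C/D snoRNAs were at 173, 415 and 277 CPM in the KO against 186, 73.3 and 89.98 CPM in wild type, where S20 again lay among the KO libraries. Of 54 C/D snoRNAs tested 7 were called (13%, against 15.4% of all genes tested), all higher. The mitochondrial share was 3.5, 7.87 and 6.93% in the KO against 2.37, 2.01 and 1.96% in wild type, so in this S20 stayed with its own group. Of the 9 spliceosomal snRNAs tested RNU1-1 was called, higher (11.1%, against 15.4% of all genes tested). The part of these in the result was not tested.

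The mRNAs of the proteins that bind H/ACA RNAs were lower in the same comparison. DKC1 (log2 fold change -0.82), NOP10 (-0.74), NHP2 (-0.68) and GAR1 (-1.12) all passed an FDR below 0.1, at which 22.4% of all genes tested were lower and 21.3% higher, and of the 4 GAR1 was also past the fold change. Of the 8 Cajal body proteins 6 were lower at this FDR and none was called, among them COIL, which builds the body (-0.70), and WRAP53, which brings scaRNAs into it (-0.56). Of 4 assembly factors 3 were lower at this FDR, and of 9 genes of RNA 3′ processing and decay 7 were lower and 1 higher, none of them called. TERC, the RNA of telomerase and itself an H/ACA RNA, was at 3.24 ± 5.21 CPM in the KO and 1.73 ± 2.57 CPM in wild type (SD, n = 3), with an adjusted p of 0.646. Among the 65 host genes 32 were lower and 6 higher at this FDR. Of the 11 called members that have a host, 4 had a host log2 fold change of the same sign and none had a host called in the same direction.

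In HCT116 with the MSTRG.4401.1 KO 2 of 83 members tested were called (2.41%), against 2.62% of all genes tested. SNORA9B, in an intron of DDX55, was at 1.10, 0.82 and 0.72 CPM in the KO and at 0.48, 0.48 and 0.35 CPM in HCT116 WT B, without overlap (log2 fold change 1.00 ± 0.30, adjusted p = 0.0804). SNORA40, in TAF1D, was called lower (-3.24 ± 0.98, adjusted p = 0.0794), at 0.06, 0.59 and 0.12 CPM against 0.48, 1.75 and 4.72 CPM, so that the groups overlapped. The groups did not overlap for 8 members that were higher and 6 that were lower, against 16.2% and 15.2% of all genes tested. SNORA40 was chosen after its values were seen. No member was called when S10, S16, S13 or S14 was left out. Without S15 or without S12 the called members were SNORA40 and SNORA73A, both lower (2.33% each time, against 2.28% and 2.07% of all genes tested). SCARNA2 was at 107, 88.0 and 81.7 CPM against 88.4, 104 and 97.4 CPM (log2 fold change -0.08 ± 0.12), and the median over the members was 0.01. SNORA73B passed the FDR but not the fold change, at 60.5, 77.1 and 55.8 CPM against 73.5, 111 and 104 CPM with overlap (-0.59 ± 0.18, adjusted p = 0.0786). None of the 4 H/ACA core proteins passed the FDR. TERT, the protein of telomerase, was called higher, at 49.2 ± 1.29 CPM against 20.4 ± 2.16 CPM (SD, n = 3; log2 fold change 1.26, adjusted p = 0.00012), whereas TERC was at 2.61 ± 4.04 CPM against 6.03 ± 4.68 CPM and was not called.

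The difference of the MSTRG.4401.1 KO effect between the cell lines was tested as an interaction over 12 libraries. It passed an FDR of 0.1 for 10 of 87 members (11.5%), against 26.9% of all genes tested. The difference, A549 minus HCT116, was 1.46 ± 0.32 for SCARNA2 (adjusted p = 0.00759), 1.78 ± 0.44 for SNORA74B (adjusted p = 0.0142) and 1.75 ± 0.55 for SNORA7B (adjusted p = 0.0422). SNORA41 had the 1 negative difference, -1.94 ± 0.60 (adjusted p = 0.0409). The count was 28 without S20 (32.2%, against 23% of all genes tested) and 4 without S24 (4.6%, against 23.6%). It was 6 without S21, S10, S16 or S14 (6.9% each, against 21.4%, 21.3%, 22.2% and 20.6% of all genes tested).

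In A549 no member was called in the MSTRG.2513.6 KO. Of 84 members tested 0 were called by edgeR, against 2.92% of all genes tested (1.13% higher and 1.79% lower), and 1 had an unadjusted p below 0.05, against 16.8% of all genes. DESeq2 called 1, SCARNA4, and without S17 SNORA3A was called. Both were chosen after their values were seen. The median log2 fold change was -0.23, against -0.03 over all genes tested, and 58 of the 84 members were below 0. SCARNA2 was at 63.7, 63.1 and 88.4 CPM against 74.7, 47.9 and 50.3 CPM (log2 fold change 0.30 ± 0.22, adjusted p = 0.564). SNORA73A was at 24.9, 25.4 and 79.0 CPM and SNORA73B at 39.3, 30.6 and 85.9 CPM, so that S19 stood above the other 2 as S20 did in wild type. SNORA59B, which the study treats as a human-specific lncRNA, was at 1.05, 0.86 and 1.01 CPM against 1.15, 1.21 and 0.70 CPM. No H/ACA core or Cajal body protein passed the FDR.

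In HCT116, libraries with the MSTRG.2513.6 KO label also had 0 of 82 members called by edgeR, against 0.933% of all genes tested, with 6 at an unadjusted p below 0.05 (7.32%, against 20.7% of all genes) and 1, SCARNA5, called by DESeq2. S8 and S9 split from S11 in the members that mark the cell lines. SNORA26 was at 0.13 and 0.24 CPM in S8 and S9 and at 2.31 CPM in S11, where A549 libraries had 0.17 to 0.43 CPM and the other 6 HCT116 libraries of set S had at least 2.17 CPM. SNORA59B was at 1.04 and 0.76 CPM in S8 and S9 and at 0 in S11, and SCARNA5 at 62.2 and 82.9 CPM against 28.6 CPM. With S8 and S9 left out only S11 remains, and a fit on it has to assume that it varies like the wild type. Of the members lower in S11 than in HCT116 WT B, SCARNA13 had a log2 fold change of -1.05. SCARNA8 was at 0.19 CPM in S11 against 0.53, 0.67 and 0.63 CPM, and SNORA59B at 0 against 0.19, 0.20 and 0.33 CPM. SCARNA8 was chosen after its values were seen. Without S11, 13 members (15.3%) and 37.2% of all genes tested were called, among the members SNORA26, SNORA55, SNORA33, SCARNA5, SCARNA6 and SNORA59B. The part of the KO in these differences cannot be told apart from that of the 2 libraries.

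MSTRG.34636.7 KO was compared with HCT116 WT A, and 0 of 79 members tested were called by edgeR, against 1.34% of all genes tested (0.729% higher and 0.607% lower). The log2 fold change was below 0 for 59 of the 79 members, with a median of -0.34, against -0.02 over all genes tested. Of the members, 4 had an unadjusted p below 0.05, against 15% of all genes, and DESeq2 called SCARNA4 and SNORA73A, both lower. SNORA73A was at 1.88, 0.23 and 0.16 CPM in the KO and at 14.7, 3.95 and 11.8 CPM in WT A, without overlap, which was so in the lower direction for 11 members (13.9%) and 10.1% of all genes tested. Its log2 fold change was -3.76 ± 0.93 with an adjusted p of 0.121. SNORA73B, its neighbour in the lncRNA gene SNHG3, was at 8.401, 7.89 and 10.7 CPM against 7.69, 10.7 and 7.81 CPM (0.05 ± 0.21), with overlap. SNORA73A was called when 1A of the KO or 2A of WT A was left out. Among the scaRNAs SCARNA2 was at 117, 117 and 113 CPM against 116, 136 and 115 CPM, and SCARNA10 at 113, 115 and 116 CPM against 147, 117 and 109 CPM, both with overlap. SCARNA17, a guide for U4 snRNA in SNHG22, was at 1.42, 1.54 and 1.78 CPM against 2.76, 2.08 and 2.40 CPM (-0.62 ± 0.24, adjusted p = 0.292). With HCT116 WT B as the control, which is of the other set, 22 members were called (26.5%, against 14.5% of all genes tested), 21 of them lower.

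The 2 wild types of HCT116 carry the same genotype label and no KO, and 11 of 83 members tested (13.3%) were called between them, 2 higher and 9 lower in WT A, against 7.06% of all genes tested. In the downward direction the shares were 10.8% of members and 3.9% of genes, and in the upward direction 2.41% and 3.16%. Of 65 SNORA members tested 9 were lower and 1 higher, and of 18 SCARNA members 1 was called, higher. SNORA73B was at 7.69, 10.7 and 7.81 CPM in WT A and at 73.5, 111 and 104 CPM in WT B, without overlap (log2 fold change -3.48 ± 0.21, adjusted p = 4.62e-05). SNORA73A was at 14.7, 3.95 and 11.8 CPM against 34.7, 64.3 and 62.1 CPM (-2.40 ± 0.47, adjusted p = 0.0176). Their common host SNHG3 had a log2 fold change of -0.23 (adjusted p = 0.595). SCARNA2 was at 122 ± 12.02 CPM in WT A against 96.7 ± 7.97 CPM in WT B, and SCARNA10 at 124 ± 19.7 CPM against 77.2 ± 12.2 CPM (SD, n = 3), both without overlap. SCARNA10 passed the FDR but not the fold change (0.68 ± 0.17, adjusted p = 0.0511), and SCARNA2 passed neither (0.32 ± 0.13, adjusted p = 0.176). SCARNA17 was called higher in WT A, at 2.76, 2.08 and 2.40 CPM against 0.71, 0.97 and 0.60 CPM (1.66 ± 0.29, adjusted p = 0.0093), and so was SNORA53, at 5.98, 3.79 and 5.90 CPM against 2.42, 2.42 and 1.95 CPM (1.20 ± 0.26, adjusted p = 0.0266).

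Of the rarer members several were nearly or wholly absent from WT A. SNORA10B had 0 counts in each WT A library and 17 to 43 counts in WT B, so that it was at least 11.6-fold lower against 3 counts in each library. SNORA7B had 1 count in every WT A library and 70 to 92 counts in WT B, 96.8-fold lower over the summed counts (exact 95% interval 32.8 to 473). SNORA8, in TAF1D, had 1 to 2 counts against 11 to 67 (21.99-fold lower, 9.1 to 69.3), and SNORA71D, in SNHG17, 1 to 3 counts against 16 to 28 (13.7-fold lower, 5.99 to 38.6). The intervals cover counting error only, and 304 of the 60641 symbols had exactly 1 count in all 6 set A libraries, so a count of 1 in these files may not be 1 read. SNORA49, SNORA57 and SNORA38B were the other members called lower, with log2 fold changes of -2.78, -1.31 and -1.26. They were chosen after their values were seen. In each of the MSTRG.34636.7 KO libraries SNORA10B had 0 counts, SNORA7B 1 count and SNORA8 2 counts, whereas SNORA71D had 6 to 11 counts. In the 18 libraries of set S these were 8 to 96, 42 to 127, 2 to 73 and 4 to 70 counts, so that the sets met at 2 counts for SNORA8 and overlapped for SNORA71D.

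**Figure D4:**
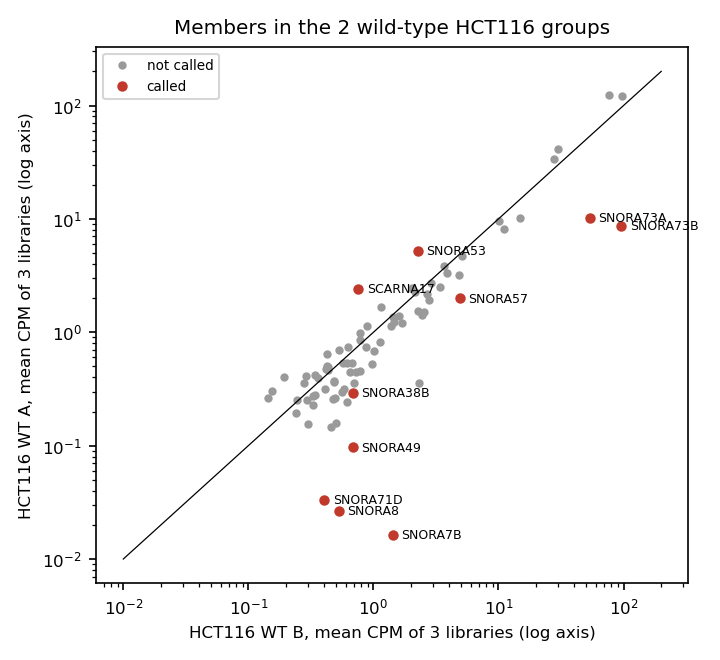
Each point is 1 member tested between the wild types of HCT116, with the mean CPM of WT B on the horizontal and of WT A on the vertical log axis (n = 3 each), the line of equal levels, and called members in red. SNORA73A and SNORA73B lie below the line while SCARNA2 and SCARNA10, the 2 points above 100 CPM in WT A, lie above it (log2 fold changes 0.32 and 0.68), and SNORA10B, at 0 in WT A, is not drawn.

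Of the 9 called members that have a host, 8 had a host log2 fold change of the same sign and none had a host called in the same direction. No H/ACA core protein passed the FDR, whereas NOLC1, which shuttles between nucleolus and Cajal body, was called lower in WT A (138.5 ± 28.3 CPM against 311 ± 13.1 CPM; SD, n = 3). Other short RNAs differed between the sets too. Of 9 spliceosomal snRNAs tested 5 were called, all lower (55.6%, against 7.06% of all genes tested). RNU4-1, for example, was at 0.19 ± 0.18 CPM against 15.7 ± 4.94 CPM (SD, n = 3). RNU2-1 was at 0.80 ± 0.24 CPM against 13.4 ± 4.34 CPM (SD, n = 3). Of 58 C/D snoRNAs tested 5 were called lower and 2 higher, together 12.1%. The set of the libraries and the wild-type group cannot be told apart. The calls were 8 to 12 when each library was left out in turn (9.3 to 14% of the members tested, against 5.43 to 7.72% of all genes tested).

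Between the cell lines, 11 of 86 members tested (12.8%) were called, 6 higher and 5 lower in A549 WT B than in HCT116 WT B, against 35.7% of all genes tested. For this pair the TMM normalization moved log2 fold changes by 0.26 relative to the library total, so that fold changes lie above the ratio of the CPM values. SNORA26, in the lncRNA gene DANCR, was at 0.41, 0.32 and 0.43 CPM in A549 and at 3.05, 2.65 and 2.93 CPM in HCT116 (log2 fold change -2.63 ± 0.23, adjusted p = 4.62e-05). DANCR had a log2 fold change of -1.87. SNORA55, in PABPC4, a poly(A)-binding protein gene, was at 0.68, 0.82 and 1.20 CPM against 2.00, 2.87 and 3.13 CPM (-1.32 ± 0.28, adjusted p = 0.00462), and PABPC4 had -1.39. SNORA33, in the ribosomal protein gene RPS12, had -1.22 and its host -0.71. SNORA80A was at 0.22, 0.10 and 0.29 CPM against 0.63, 0.64 and 0.91 CPM (-1.59 ± 0.44, adjusted p = 0.0168), with its host URB1 at -0.63. SNORA80C, with no host on its strand, was at 0.08, 0.02 and 0.10 CPM against 0.31, 0.28 and 0.30 CPM (-1.91 ± 0.59, adjusted p = 0.0268). These are low levels, some of them within the 3-count floor.

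The members higher in A549 included SNORA59B, which lies in SLC47A1, a gene of a drug and toxin transporter. It was at 1.15, 1.21 and 0.70 CPM in A549 and at 0.19, 0.20 and 0.33 CPM in HCT116 (log2 fold change 2.34 ± 0.39, adjusted p = 0.00152), and SLC47A1 had a log2 fold change of 5.71. At 701 nt SNORA59B is the longest member, without ACANNN at its end. SCARNA5 was at 89.2, 53.4 and 35.7 CPM against 17.6, 31.5 and 33.8 CPM (1.39 ± 0.40, adjusted p = 0.0195). SCARNA6, in the same host, was called as well (1.54 ± 0.59, adjusted p = 0.0593) with overlapping libraries, and ATG16L1 had 0.96. SNORA74B was at 1.26, 0.69 and 1.28 CPM against 0.67, 0.62 and 0.57 CPM (1.05 ± 0.32, adjusted p = 0.0252), and its host ATP6V0E1, a subunit of the proton pump of lysosomes, had 1.44. SCARNA21, in the chromatin remodeller gene CHD3, had 1.91 and its host 1.53, and SNORA40B had 1.23 while its host RAB3GAP1 had 0.08. SNORA33, SCARNA21 and SNORA40B were chosen after their values were seen.

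Of the 10 called members with a host, 10 had a host log2 fold change of the same sign and 5 had a host called in the same direction, namely SNORA59B, SNORA74B, SCARNA21, SNORA26 and SNORA55. SNORA26 and SNORA55 overlap an exon of their host, so that reads of DANCR and PABPC4 may be counted in them. SNORA59B, SNORA74B and SCARNA21 lie in introns of their hosts. Whether reads of unspliced host RNA were counted in them was not tested. Over the 78 pairs tested, which share 64 hosts and these 6 libraries, the Spearman correlation of member and host log2 fold changes was 0.45. It was 0.16 over 76 pairs between the wild types of HCT116, 0.33 over 77 pairs in A549 MSTRG.4401.1 KO and 0.52 over 74 pairs in the comparison that S8 and S9 enter, and 0.06, 0.20 and 0.26 in the other 3 comparisons. In A549 MSTRG.4401.1 KO the members' median absolute log2 fold change was 0.71 and that of their hosts 0.34. These comparisons share libraries, and the correlations were not tested against each other. SCARNA2 was at 57.6 ± 14.8 CPM in A549 and 96.7 ± 7.97 CPM in HCT116 (SD, n = 3; -0.47 ± 0.20, adjusted p = 0.0858), past the FDR and not the fold change. Without S20 there were 13 calls (15.1%, against 35.7% of all genes tested), 7 of them among the 11. SCARNA5 and SCARNA6 were then not called, and SNORA73B was (-1.26).

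**Figure D5:**
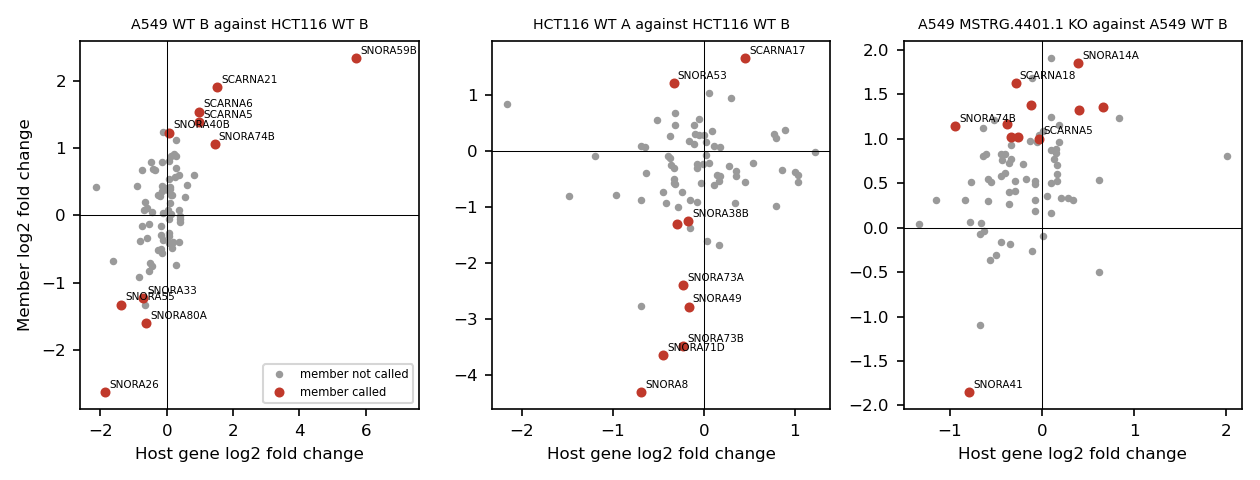
Each point is 1 member with a host gene, with the host's log2 fold change on the horizontal and the member's on the vertical axis, for A549 WT B against HCT116 WT B, HCT116 WT A against WT B, and A549 MSTRG.4401.1 KO against A549 WT B, and with called members in red (some without a name). In the first panel all 10 called members lie in the quadrants where both have the same sign, from SNORA26 to SNORA59B, in the second 8 of 9 do, with SNORA53 as the exception, and in the third 4 of 11 do.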

How the data were processed

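RNA was extracted from A549 and HCT116 cells, depleted of ribosomal RNA and sequenced from strand-specific libraries, with 3 libraries in each of 8 groups. Per the labels and the submitters' processing notes, the authors trimmed reads with Trim Galore 0.6.6, used FastQC 0.11.9 and aligned to hg38 with HISAT2 2.2.1, and they deposited raw whole-number counts per gene symbol, neither normalized nor pooled. The study names Stringtie as its program for quantifying expression. The annotation release, how whole counts were obtained and the use of the strand are not given in the sources used here. The 3 symbols listed in set A alone were left out.

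Each comparison was fitted on the counts of all genes in its 2 groups with edgeR 4.0.16 in R 4.3.3 (TMM, filterByExpr, glmQLFit and glmQLFTest, Benjamini-Hochberg), and called at FDR < 0.1 and |log2 fold change| > 1. The comparisons share wild types, and WT B of HCT116 enters 4 of them. Replicates were no duplicates, with a chi-square per degree of freedom of at least 17.5 in every pair. The test was also run on counts simulated from its own estimates, with changes only in genes above 1 CPM. That run does not cover the 53 of 87 members with a mean below 1 CPM. Positions, hosts and sequences came from GENCODE release 44, and alignments from Biopython 1.88. With several containing genes, the host was the one with the highest mean CPM.

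Named were the 10 members with the highest mean CPM, up to 4 called members without overlap in each direction of a comparison, up to 3 called in the most KOs, 12 fixed members and 4 on each side of the minimum. Members named beyond this were chosen after their values were seen. The members, lists and tests were chosen with earlier results of these data known. Alternatives were RLE normalization, DESeq2 1.42.0, no filter, each library left out, the other HCT116 wild type, no S8 and S9, a replicate block, and TMM library sizes for levels.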

Additional observations from a re-analysis of the deposited data

Results flagged for a closer look

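The effect of MSTRG.4401.1 KO differed between A549 and HCT116 by the interaction test (edgeR's quasi-likelihood test, adjusted p below 0.1 over all genes tested) for 10 members, given as the A549 minus the HCT116 log2 fold change. SCARNA2 had a difference of 1.46, SCARNA12 of 1.13 and SCARNA7 of 1.17, with A549 log2 fold changes of 1.42, 1.17 and 0.81 against HCT116 values of -0.08, -0.01 and -0.40. Among the snoRNAs, the difference was 1.75 for SNORA7B, 1.78 for SNORA74B, 2.06 for SNORA47 and 2.04 for SNORA80A. SNORA41 had a difference of -1.94 and was at 0.85 to 1.55 CPM in the HCT116 KO libraries. SNORA40 had the largest difference, 4.85, from 1.68 in A549 and -3.24 in HCT116, but its libraries overlapped in both lines and it was not called in A549 (adjusted p = 0.256). SNORA59B had a difference of 2.22 and was too low in HCT116 for the test within that line, with at most 0.33 CPM in its 6 libraries. The A549 side of each difference holds S20, and the cause of that library's level was not tested.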

How the results depend on the processing

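Of 1320 values recomputed under an alternative, 1121 kept their direction and side of the threshold or stayed near their main value, 108 moved, 61 lost and 23 gained a call, and 7 reversed. The calls in A549 MSTRG.4401.1 KO fell from 13 to 8 with RLE normalization, 7 with DESeq2 and 6 with no filter, all among the 13. These were 9.52%, 8.33% and 6.9% of the members tested, against 14.6%, 14.1% and 8.67% of all genes tested. With each library left out the calls were 5 to 29 (5.88 to 34.5%, against 11.3 to 15.7% of all genes tested). Those of the interaction were then 4 to 28 (main 10), or 4.6 to 32.2%, against 20.6 to 29% of all genes tested. For the KO of MSTRG.2513.6 the calls were then 0 to 1 in A549 and 0 to 13 in HCT116 as labelled, for that of MSTRG.4401.1 in HCT116 0 to 2, and for that of MSTRG.34636.7 0 to 1. Of all genes tested 1.69 to 2.95%, 0 to 37.2%, 1.97 to 2.41% and 0.265 to 2.43% were called in these fits. DESeq2 called 1, 1 and 2 members for MSTRG.2513.6 in A549, MSTRG.2513.6 in HCT116 and MSTRG.34636.7. These were 1.19%, 1.22% and 2.53% of the members tested, against 3.91%, 10.5% and 3.08% of all genes tested. No filter left 0 in HCT116 MSTRG.4401.1 KO, against 1.52% of all genes tested. Without S8 and S9, HCT116 MSTRG.2513.6 KO is left with S11 alone, so its calls are not counted. With WT A as control HCT116 MSTRG.2513.6 KO had 3 calls (3.8%, against 3.4% of all genes tested). HCT116 MSTRG.4401.1 KO then had 8 (9.76%, against 10.2%). With WT B as control MSTRG.34636.7 KO had 22 (26.5%, against 14.5%). The cause was not tested.

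Reversed were SNORA73B with the other control (log2 fold change 2.86 for the MSTRG.2513.6 KO, 2.88 for HCT116 with MSTRG.4401.1 KO and -3.43 for the KO of MSTRG.34636.7), SCARNA17 with the other control (-1.51 for MSTRG.4401.1 and 1.04 for MSTRG.34636.7), and SCARNA13 (-1.05) and SNORA59B (-6.72, fitted against S11 at 0, so not a measured fold) in HCT116 MSTRG.2513.6 KO without S8 and S9. The summed CPM of MSTRG.34636.7 KO was 401 with TMM library sizes.

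Same-numbered libraries of MSTRG.34636.7 KO and WT A had deviations from their group means that correlated at 0.0103, 0.0411 and 0.081. Each was the highest of its KO library but under 0.1, while WT A 1A correlated more with KO 2A (0.0226). Of the other same-numbered pairs none was above 0.0111. Deviations from a mean of 3 libraries cannot decide whether the numbers pair the libraries. With a replicate block MSTRG.34636.7 KO had 1 call, SNORA73A, the wild types of HCT116 had 10 and the cell lines 8. These were 1.27%, 12% and 9.3% of the members tested, against 0.576%, 6.83% and 34.2% of all genes tested. At this depth 1 to 8 members in each comparison did not pass the filter on low counts and were not tested.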
